A study of Mus musculus with 24 samples.

Results

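The beta-adrenergic receptor genes Adrb1 and Adrb3 were followed in CD11b+ myeloid cells of mouse spleen and bone marrow before and after myocardial infarction (MI). They are 2 of the 20659 genes to which probes of the array could be matched by RefSeq transcript. They were picked by gene symbol, and each is read by 2 of the 4 probes described here. Cells came from male wild-type (WT) mice, mice lacking histidine decarboxylase (HDC-KO) and mice lacking the transcription factor STAT6 (STAT6-KO), all on a Balb/C background and 10 weeks old. Each genotype and tissue had a control sample and samples taken 1, 2 and 4 weeks after MI. Each sample pooled the cells of 5 mice and was hybridised once, so no condition had a second array and the spread between mice cannot be seen. Of the 24 arrays, 22 were complete. The array of HDC-KO spleen without MI and that of marrow from STAT6-KO mice at 1 week held 229 and 84 complete spots of 44397, none of them a member probe, and are not analysed here.

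Beta-adrenergic receptors bind noradrenaline from sympathetic nerves and adrenaline from the adrenal gland. They couple mainly to the stimulatory G protein, which turns on adenylyl cyclase, and the cyclic AMP so made activates protein kinase A. The beta-1 receptor, encoded by Adrb1, is best known for raising heart rate and contractility. The beta-3 receptor, encoded by Adrb3, is best known in fat cells, and sympathetic signals through beta receptors also reach the niche of the bone marrow. Histidine decarboxylase makes histamine, and STAT6 carries the signals of interleukin 4 and interleukin 13.

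Adrb1 lies on chromosome 19 (GRCm38.p6, 56722117 to 56725150) and Adrb3 on chromosome 8 (27225776 to 27230845). The RefSeq promoter window of Adrb1 was read because its receptor acts through cyclic AMP, and the short form of the cyclic AMP response element was searched in it. The window runs from 250 bases before the start of the gene to 50 bases after it, at chr19:56721867-56722166 on the plus strand, and the capitals mark TGACG:

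Adrb1 promoter: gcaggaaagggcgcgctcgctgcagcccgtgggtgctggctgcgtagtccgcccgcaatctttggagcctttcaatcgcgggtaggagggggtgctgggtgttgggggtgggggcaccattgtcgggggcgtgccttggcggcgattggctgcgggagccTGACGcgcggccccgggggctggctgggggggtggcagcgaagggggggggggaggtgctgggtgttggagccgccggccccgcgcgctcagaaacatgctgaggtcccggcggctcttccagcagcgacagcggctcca

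TGACG, searched on both strands, occurred 1 time, at base -90 from the start, and it is held by 20.8% of the 32851 promoter windows of the same length. The full element TGACGTCA, which contains TGACG, was not in these letters, and 1.79% of all windows hold it. CCAAT and GGGCGG each occurred 1 time, against 37.4% and 35.7% of all windows. TATAAA and CACGTG were not in the window, against 13.6% and 7.15% of all windows. G and C made up 72.3% of the window, against a median of 52.7% over all windows, and 6.45% of windows reached that share. A match is a run of letters and no binding was measured. The table of promoters held no window for Adrb3.

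Signals are given as the log2 of the processed spot signal minus that of the array's 75th percentile, so 0 is the level of a fairly bright spot on that array and a step of 1 is a doubling. That percentile lay between 928 and 2461 signal units on the 22 arrays, and 70.4% to 79.8% of spots were well above background. The 4 arrays of a slide held the 4 time points of 1 genotype in 1 tissue, so genotype and tissue cannot be told apart from slide, nor time point from position on the slide. Hdc was lower on every HDC-KO array (1.67 to 2.78) than on any other (4.12 to 5.51). The 3 Stat6 probes were lower in STAT6-KO than on every other array in bone marrow, while in spleen the ranges overlapped for all 3. All 5 genes of the CD11b+ myeloid list, Itgam among them, were well above background on every array. The list's mean was lower in spleen (3.05 to 3.84) than in bone marrow (4.05 to 4.68). Itgam, which encodes CD11b, read 3.52 to 4.83 in spleen and 5.10 to 5.85 in bone marrow.

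One probe of Adrb1, A_52_P322181, separated the tissues completely. In spleen it read 0.63 in WT control and -2.15, -2.09 and -1.86 in WT at 1, 2 and 4 weeks after MI. In HDC-KO spleen it read -0.08, -0.56 and 0.46 at 1, 2 and 4 weeks. In STAT6-KO spleen it read 0.16 in control and 0.42, -0.00 and -0.92 at 1, 2 and 4 weeks. The WT samples after MI were thus the 3 lowest of the 11 spleen arrays, and WT control was the highest. With 1 array per condition, the steps between neighbours in that order have no error of their own.

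The same probe was dim in bone marrow. It read -4.46 in WT control and -5.15, -5.77 and -6.94 at 1, 2 and 4 weeks, and the last of these was not well above background. It read -3.79 in HDC-KO control and -4.42, -5.84 and -4.23 at 1, 2 and 4 weeks. It read -5.29 in STAT6-KO control and -5.09 and -4.51 at 2 and 4 weeks. The highest bone marrow array, HDC-KO control, lay below the lowest spleen array, and raw signals were 7.8 to 110 units in bone marrow against 358 to 2684 in spleen.

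**Figure D1:**
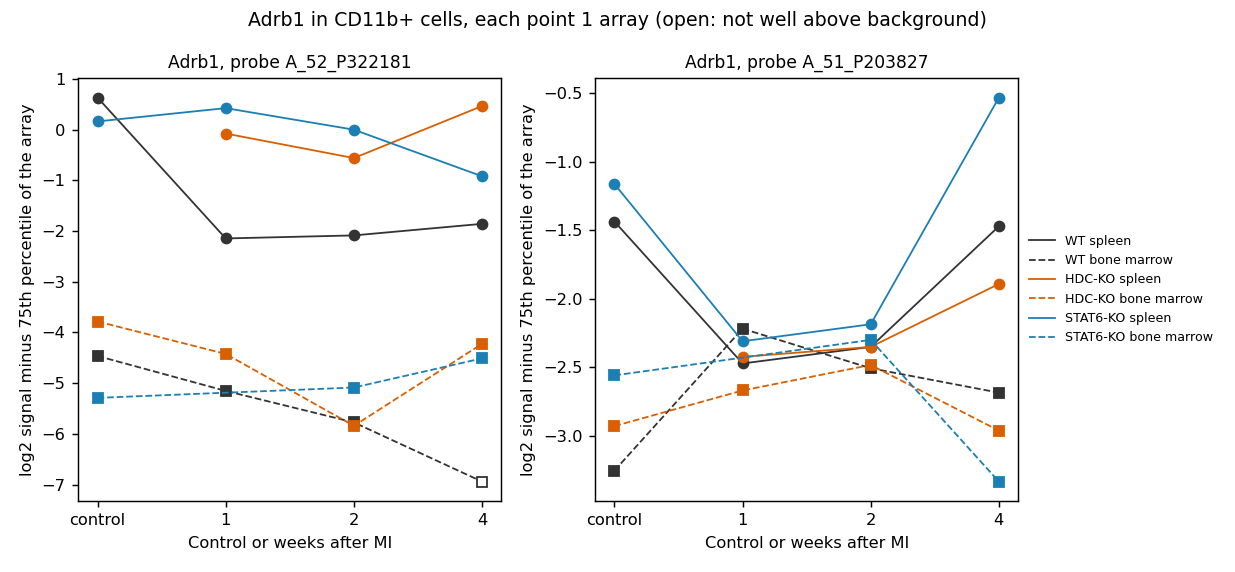
Scaled log2 signal of the 2 Adrb1 probes (left A_52_P322181, right A_51_P203827, with separate vertical scales) in control samples and 1, 2 and 4 weeks after MI. Each point is 1 array, solid lines are spleen and dashed lines bone marrow, colours are genotypes, a line passes over a missing array, and the open square is the array at -6.94 that was not well above background. The left panel shows all 11 spleen arrays above all 11 bone marrow arrays and WT spleen between -2.15 and -1.86 after MI, while the tissues overlap in the right panel.

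The 10 pairs of arrays that share genotype and time point were used for the tissue comparison. Pairs of the same genotype came from the same slides, and the tests over pairs treat them as independent. Adrb1 A_52_P322181 was higher in spleen in 10 of 10 pairs, by 34.2-fold in WT control, 8.04-fold in WT at 1 week and 43.7-fold in STAT6-KO control. In WT at 4 weeks the fold was at least 29.9, since the bone marrow spot gave only a bound. The mean difference was 4.53 ± 0.84 (SD, n = 10) on the log2 scale. An exact two-sided sign-flip permutation test gave p = 0.00195, which is the smallest that 10 pairs can give. In limma the difference had a standard error of 0.24, a 95% interval of 4.00 to 5.06 and an adjusted p of 7.68e-08. Over all probes, 54.9% of the 33524 tested passed an adjusted p of 0.05 in this comparison, with a median difference of -0.17, so passing it is common and the size says more. The difference ranked 49 from the highest, and 0.146% of probes were at or above it. The study had itself singled out Adrb1 on these arrays, so its size here is not independent evidence.

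The other Adrb1 probe, A_51_P203827, showed a smaller difference. In spleen it read -1.44, -2.47, -2.35 and -1.47 in WT control and at 1, 2 and 4 weeks. It read -2.42, -2.35 and -1.89 in HDC-KO at 1, 2 and 4 weeks. It read -1.16, -2.31, -2.19 and -0.53 in STAT6-KO control and at 1, 2 and 4 weeks. In these arrays the samples at 1 and 2 weeks were the low ones in every genotype, WT included. Bone marrow lay between -3.33 and -2.22 with a median of -2.67, so the tissues overlapped.

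A_51_P203827 was higher in spleen in 9 of 10 pairs, with a mean difference of 0.87 ± 0.96 (SD, n = 10). The exact two-sided sign-flip permutation test gave p = 0.0137, and limma gave an adjusted p of 0.0186. The largest pair was STAT6-KO at 4 weeks, 6.97-fold, and WT at 1 week went the other way, 1.19-fold lower in spleen. The tissue difference of A_52_P322181 exceeded that of A_51_P203827 in 10 of 10 pairs, by 3.66 ± 1.20 (SD, n = 10), and the exact two-sided sign-flip permutation test of that gap gave p = 0.00195. Both probes carry the same RefSeq transcript identifier, and which of them follows the transcript better was not tested.

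Adrb3 went the other way on its brighter probe, A_55_P2105685. In spleen it read -2.78, -3.38, -3.64 and -2.67 in WT control and at 1, 2 and 4 weeks. It read -3.15, -3.30 and -2.74 in HDC-KO at 1, 2 and 4 weeks. It read -3.15, -3.07, -3.57 and -2.56 in STAT6-KO control and at 1, 2 and 4 weeks. All 11 spleen values thus fell in a band of little more than 1 log2 unit, with no genotype apart from the others.

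In bone marrow, A_55_P2105685 read -3.25, -2.00, -2.49 and -2.35 in WT control and at 1, 2 and 4 weeks. It read -3.10, -2.39, -2.76 and -2.61 in HDC-KO control and at 1, 2 and 4 weeks. It read -2.43, -1.48 and -2.42 in STAT6-KO control and at 2 and 4 weeks. The 8 bone marrow samples after MI ran from -2.76 to -1.48, and the controls of WT and HDC-KO were the lowest arrays of that tissue. The probe was lower in spleen in 9 of 10 pairs, by 0.68 on average with an SD of 0.73, and WT control was the exception. The exact two-sided sign-flip permutation test gave p = 0.0156. Limma gave a difference of -0.68, a standard error of 0.22 and an adjusted p of 0.0185. This call was lost when the mean of both Adrb3 probes was tested, with a difference of -0.36 and an adjusted p of 0.365. Adiponectin (Adipoq), a marker of fat cells, was well above background on all 11 bone marrow arrays (-4.49 to -0.54) and on 4 of 11 spleen arrays (-8.24 to -6.07). Of the 6 adipocyte genes listed, 4 were well above background on every bone marrow array and 1, Fabp4, on every spleen array, and Ucp1 was on none in bone marrow. The list's mean was -4.56 to -3.37 in bone marrow and -5.54 to -3.85 in spleen, and its part in the Adrb3 result was not tested.

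The second Adrb3 probe, A_55_P1992849, was near background. It was well above background on 6 of 11 spleen and 7 of 11 bone marrow arrays, with raw signals of 3.5 to 44.5 units. Spleen values ran from -7.57 to -5.21 and bone marrow values from -8.73 to -4.96, and the tissues overlapped. The spot of WT spleen at 4 weeks was marked as an outlier and was dropped from every fit. Its tissue difference of -0.34 over the 9 pairs left did not pass (adjusted p = 0.554 in limma), with a 95% interval of -1.33 to 0.65.

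**Figure D2:**
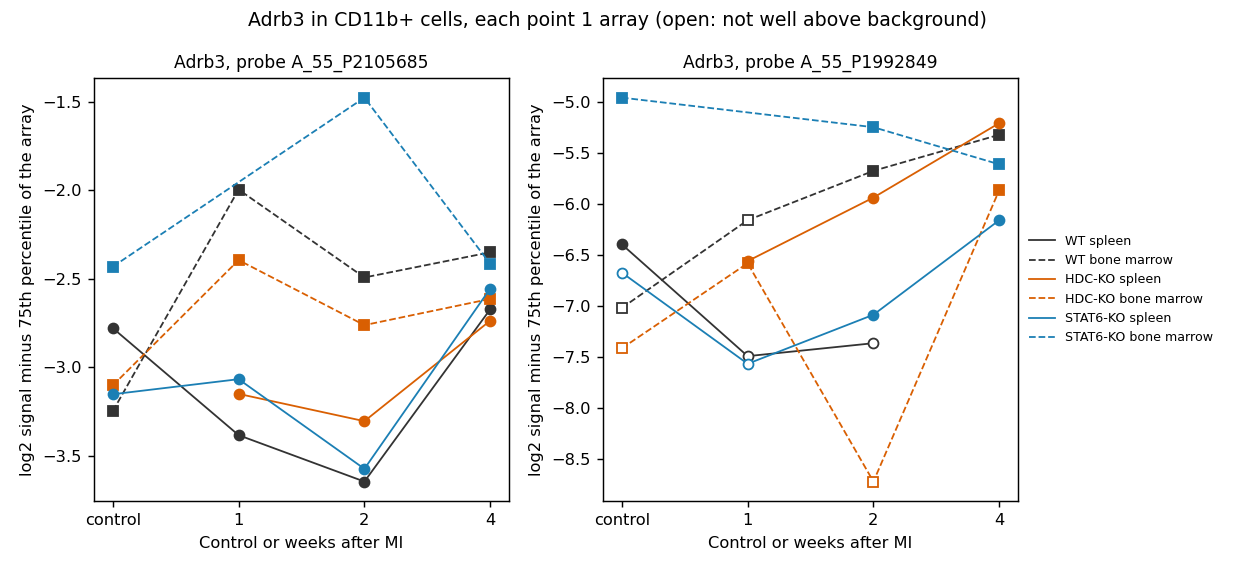
Scaled log2 signal of the 2 Adrb3 probes (left A_55_P2105685, right A_55_P1992849, with separate vertical scales), drawn as for Adrb1, with open points for arrays not well above background. On the left, bone marrow after MI lies at -2.76 to -1.48 and spleen at -3.64 to -2.56, and on the right 8 of the 21 measured points are open.

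**Figure D3:**
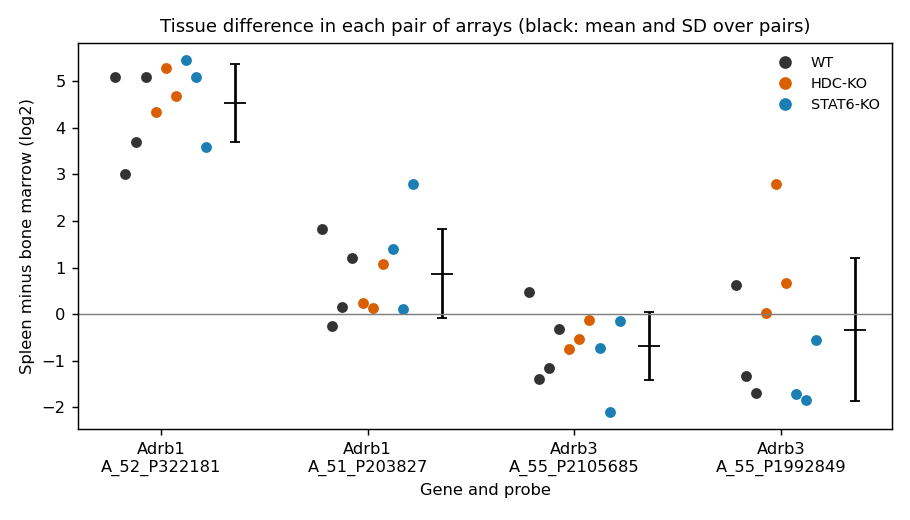
Spleen minus bone marrow, in log2 units, for each pair of arrays that shares genotype and time point, by probe. Coloured points are pairs, and the black bars are the mean and SD over 10 pairs (9 for A_55_P1992849); the differences of A_52_P322181 run from 3.01 to 5.45, while those of the other probes reach across 0.

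After MI, Adrb1 A_52_P322181 was lower than control in all 3 WT spleen samples, by 6.86-fold at 1 week, 6.58-fold at 2 weeks and 5.62-fold at 4 weeks. In STAT6-KO spleen the same probe was 1.20-fold higher at 1 week, 1.12-fold lower at 2 weeks and 2.12-fold lower at 4 weeks. HDC-KO spleen had no complete control array. Taken over genotypes, MI minus control in spleen was -1.49 with a standard error of 0.55 and did not pass (limma, adjusted p = 0.261, 95% interval -2.76 to -0.23). Of 32087 probes in that comparison 0 passed (0%), with 5060 at an unadjusted p under 0.05. The MI effect on A_52_P322181 was -2.66 without the STAT6-KO arrays and -0.33 without the WT arrays. Each of these 2 fits holds 1 control array, which is assumed to vary like the other arrays. The controls read 0.63 in WT and 0.16 in STAT6-KO. The means after MI were -2.03 in WT and -0.17 in STAT6-KO.

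The difference between the genotypes in this response was looked at only after the values were seen. It rests on 1 control array per genotype, which is assumed to vary like the other arrays. On A_51_P203827 the MI effect in spleen was 0.15 higher in STAT6-KO than in WT. At 1 and 2 weeks that probe was lower than control by 2.22-fold and 2.03-fold in STAT6-KO and by 2.05-fold and 1.89-fold in WT. The MI effect on A_52_P322181 in spleen was 2.33 higher in STAT6-KO than in WT, with a standard error of 0.72 and a 95% interval of 0.62 to 4.05. Its limma p was 0.0151 before adjustment and 0.987 after it. None of the 31489 probes passed in that comparison (0%), and 1265 had an unadjusted p under 0.05.

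In bone marrow, A_52_P322181 was lower than control in all 3 WT and all 3 HDC-KO samples after MI, by 1.36-fold to 4.16-fold where both spots were measured. In WT at 4 weeks it was at least 4.91-fold lower. In both STAT6-KO samples it was higher, by 1.15-fold at 2 weeks and 1.72-fold at 4 weeks. The joint effect of -0.66 did not pass (limma, adjusted p = 0.538, 95% interval -1.87 to 0.55), and again 0 of 32800 probes passed (0%), with 5540 at an unadjusted p under 0.05. A_51_P203827 gave -0.59 in spleen and 0.30 in bone marrow, and neither passed (limma, adjusted p = 0.300 and 0.494).

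Adrb3 A_55_P2105685 was above its control in all 8 bone marrow samples after MI. These samples share 3 control arrays, 1 per genotype. The steps were 2.38-fold, 1.69-fold and 1.86-fold in WT and 1.63-fold, 1.27-fold and 1.40-fold in HDC-KO. In STAT6-KO they were 1.94-fold at 2 weeks and 1.01-fold at 4 weeks. The joint effect of 0.70 had a standard error of 0.20 and a 95% interval of 0.23 to 1.17, and did not pass. Its limma p was 0.00945 before and 0.201 after adjustment. In spleen the probe gave -0.18 (limma, adjusted p = 0.635, 95% interval -0.59 to 0.23). The dimmer probe A_55_P1992849 gave 0.45 in bone marrow and -0.45 in spleen, and neither passed (limma, adjusted p = 0.705 and 0.306).

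Between genotypes, Adrb1 A_52_P322181 was higher in HDC-KO than in WT spleen at every time point measured, by 4.20-fold, 2.88-fold and 5.01-fold at 1, 2 and 4 weeks after MI. In the fit over all 11 spleen arrays the difference was 1.68 with a standard error of 0.53 and a 95% interval of 0.46 to 2.90, and it did not pass (limma, adjusted p = 0.124). Over all probes, 2.63% passed in this comparison. It passed in the fit on the 2 genotypes alone, at 1.97 with an adjusted p of 0.012, and without the control arrays, at 1.97 with an adjusted p of 0.0399. Both of these estimates come from the same HDC-KO and WT arrays at 1, 2 and 4 weeks. It did not pass with normexp background correction, at 1.55, or as the mean of both probes, at 0.77 (limma, adjusted p = 0.133). Under the alternatives 0 to 2984 probes passed, against 843 in the fit that gave 2.63%. The only WT array with no HDC-KO partner was the control, the highest spleen array of this probe. A_51_P203827 showed no such gap, at 1.03-fold higher, 1.00-fold and 1.34-fold lower in HDC-KO, and a difference of -0.14 (limma, adjusted p = 0.768, 95% interval -0.68 to 0.40).

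STAT6-KO spleen was 5.94-fold, 4.24-fold and 1.92-fold above WT on A_52_P322181 at 1, 2 and 4 weeks, and 1.38-fold below it in control. The difference of 1.28 had a standard error of 0.47 and a 95% interval of 0.19 to 2.37, and did not pass (limma, adjusted p = 0.165), where 1.96% of probes did. Without the control arrays it was 1.86 and passed, with an adjusted p of 0.049. It passed under no other alternative, and with normexp background correction it was 1.19 (limma, adjusted p = 0.558). When single time points were left out, 43 to 1128 probes passed, against 629 with all of them. A_51_P203827 was 0.39 higher and did not pass (limma, adjusted p = 0.314).

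In bone marrow the genotype differences of A_52_P322181 were 1.01 for HDC-KO and 0.72 for STAT6-KO, with standard errors of 0.53 and 0.60. Neither passed (limma, adjusted p = 0.306 and 0.516), where 0.424% and 4.34% of probes did. The largest gaps, at least 5.80-fold and at least 4.76-fold, were at 4 weeks, against the WT array that was not well above background. With normexp background correction the differences were 0.07 for HDC-KO and -0.0033 for STAT6-KO. A_51_P203827, well above background on all 11 bone marrow arrays, gave -0.095 and 0.025, and neither passed (limma, adjusted p = 0.814 and 0.965). At 4 weeks that probe was 1.21-fold lower in HDC-KO and 1.57-fold lower in STAT6-KO than in WT. Whether the genotype effect differed between tissues was tested by the interaction. It was 0.55 for HDC-KO and 0.49 for STAT6-KO on A_52_P322181 and passed for neither (limma, adjusted p = 0.758 and 0.812), where 0.937% and 0.307% of probes did. The 95% intervals of these interactions ran from -0.79 to 1.90 and from -0.85 to 1.83, so a difference of more than 1 log2 unit lies within both.

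For Adrb3 A_55_P2105685 the genotype differences were 0.10 and 0.03 in spleen and -0.20 and 0.55 in bone marrow, for HDC-KO and STAT6-KO in that order. None passed (limma, adjusted p = 0.774, 0.920, 0.590 and 0.210). A_55_P1992849 passed in 1 comparison, HDC-KO against WT in spleen, at 1.08 with a standard error of 0.19 (limma, adjusted p = 0.0396). It read -6.56, -5.94 and -5.21 on the 3 HDC-KO arrays, all well above background. It read -6.40, -7.50 and -7.37 on the 3 WT arrays left, and only the first of these, the control, was well above background. The dropped WT spot at 4 weeks read -3.77, above every other spleen array of this probe. With outlier spots kept the difference was 0.36 (adjusted p = 0.720), and with low signals set to the lowest well-measured signal it was 0.33 (adjusted p = 0.590).

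The mean of a list of monocyte and macrophage marker genes was also higher on every spleen array than on any bone marrow array. All 5 of the list (Ccr2, Cx3cr1, Adgre1, Mertk and Spic) were well above background on every spleen array. Their mean was 3.01 in WT spleen control and 2.30, 2.08 and 2.17 after MI. It was 2.99, 2.34 and 2.74 in HDC-KO spleen at 1, 2 and 4 weeks. It was 3.05, 3.17, 3.13 and 2.82 in STAT6-KO spleen, and between -0.21 and 0.93 in bone marrow, where 4 of the 5 were well above background on every array. WT spleen after MI thus held the lowest spleen values of both the list and the receptor, though HDC-KO at 2 weeks lay close on the list. Within bone marrow the order differed, since HDC-KO control had the highest receptor value (-3.79) and the lowest list mean (-0.21). In spleen, HDC-KO at 4 weeks was second on the receptor (0.46) and, at 2.74, below every STAT6-KO array on the list. In such bulk samples, fewer cells of a type and less RNA per cell cannot be told apart, and the part of these cells in the Adrb1 result was not tested. The mean of the neutrophil granule list ran from 3.89 to 5.30 in spleen and from 5.49 to 6.30 in bone marrow. The mean of the B cell list ran from 0.95 to 3.09 in spleen and from -2.00 to 1.56 in bone marrow. The dendritic cell list separated the tissues as well, at -1.06 to 0.23 in spleen and -2.90 to -1.91 in bone marrow. The T cell list ran from -0.05 to 2.52 against -1.38 to -0.47, and the NK cell list from -1.70 to 0.48 against -2.93 to -1.79, and the part of these cells was not tested either.

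**Figure D4:**
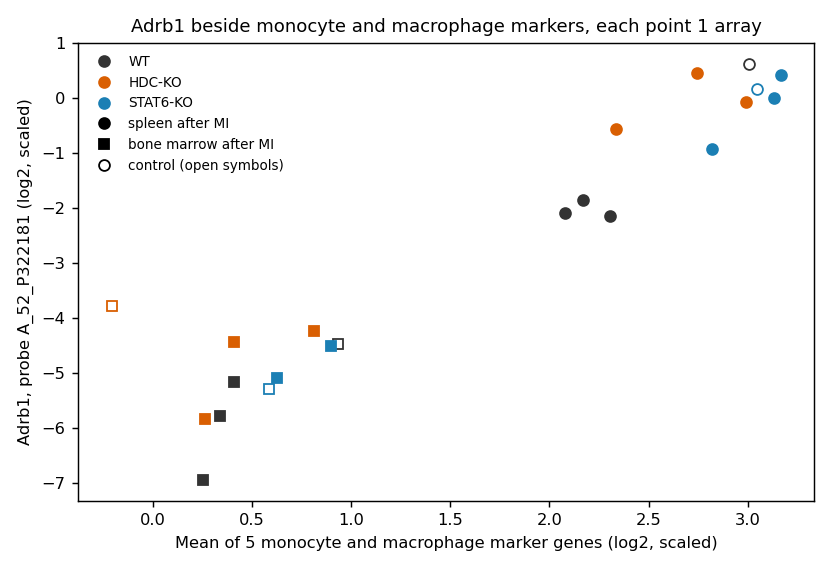
Adrb1 probe A_52_P322181 (vertical axis) against the mean of 5 monocyte and macrophage marker genes (horizontal axis), both as scaled log2 signal, with each point 1 array. Circles are spleen, squares bone marrow, open symbols controls, and colours genotypes; the 3 WT spleen samples after MI (2.08 to 2.30 on the horizontal axis) lie below the other 8 spleen arrays (2.34 to 3.17).

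The genes whose signal ran most like A_52_P322181 over the 22 arrays were Tmcc3, Slc45a3, Lilra5, St6galnac2 and Slc1a3, with a Pearson correlation of 0.98 each. After each tissue's mean was subtracted they were Mrap and Vcam1 at 0.90, Tmcc3 at 0.89, Slco2b1 at 0.88 and Slc7a8 at 0.86. Vcam1 encodes an adhesion molecule and Mrap an accessory protein of melanocortin receptors. For A_51_P203827 the nearest were Ccdc169 at 0.93, Zfp715 at 0.92 and Cacfd1, Il4ra and Dpf1 at 0.91, and with tissue means subtracted Samd10 at 0.92, Trim12a at 0.90, Ovol2 at 0.89, Ccdc169 at 0.88 and Fnbp1 at 0.87. No gene stood in the lists of both Adrb1 probes. For Adrb3 A_55_P2105685 they included Klk9 at 0.89 and Smoc1, Tnxb and Rac3 at 0.87, and with tissue means subtracted Klk11 and Noc3l at 0.84, Klk9 at 0.83 and Asb4 at 0.82. These arrays share slides, tissue and genotype, so the correlations are descriptions only.

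The other genes of the pathway were taken from 5 lists, 1 probe per gene, of which 58 genes were tested between the tissues. In spleen 19 were higher and 19 lower, where 22.3% of all probes were higher and 32.6% lower. The list counts that follow are to be read against these shares, and all values are log2 differences. Of the alpha-adrenergic receptors, which bind the same catecholamines, 0 of 5 tested were higher and 3 were lower in spleen. The log2 differences were -1.71 for Adra1b, -1.52 for Adra2a and -0.77 for Adra2c. Adra2a was well above background on 4 of 10 spleen arrays. The list's median was -0.77, against -0.17 over all probes.

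Of 21 genes of the G proteins, adenylyl cyclases and protein kinase A, 8 were higher and 7 lower in spleen, with a median of -0.23. The cyclase Adcy8 (3.47), the exchange factor Rapgef4 (2.98) and the kinase subunit Prkar1b (2.74) were the furthest above. Adcy8 and Rapgef4 were not well above background on any of the 10 bone marrow arrays, so their folds were at least 3.04 and at least 4.72. The kinase subunit Prkar2b (-1.51), the cyclase Adcy9 (-1.25) and the inhibitory G protein subunit Gnai3 (-1.02) were the furthest below. Gnas, the stimulatory subunit that the beta receptors couple to, was chosen after its values were seen and passed at -0.62 (limma, adjusted p = 0.00208).

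Of 14 genes of desensitisation and cyclic AMP breakdown, 5 were higher and 6 lower, with a median of -0.27. The receptor kinase Grk3 (2.38) and the phosphodiesterases Pde7a (1.32) and Pde3b (1.00) were the furthest above. The arrestin Arrb2 (-1.74), the receptor kinase Grk6 (-1.32) and the phosphodiesterase Pde3a (-0.79) were the furthest below. Of the 8 genes of catecholamine synthesis, transport and breakdown, 1 was higher, the breakdown enzyme Maob (0.44), and this call was lost when single pairs were left out. The vesicle transporter Slc18a2 (-1.62) and the synthesis enzymes Dbh (-0.88) and Ddc (-0.83) were lower, and the list's median was -0.43.

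Of 10 cyclic AMP-responsive genes 5 were higher in spleen and 0 lower, with a median of 0.85 against -0.17 over all probes, of which 22.3% were higher. Areg, an epidermal growth factor receptor ligand, was higher by 2.31, the coactivator Ppargc1a by 1.67 and the nuclear receptor Nr4a3 by 1.39. Areg and Nr4a3 were each well above background on 2 of 10 bone marrow arrays, and on 7 and 5 of 10 spleen arrays. With normexp background correction 2 of the 10 were higher.

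**Figure D5:**
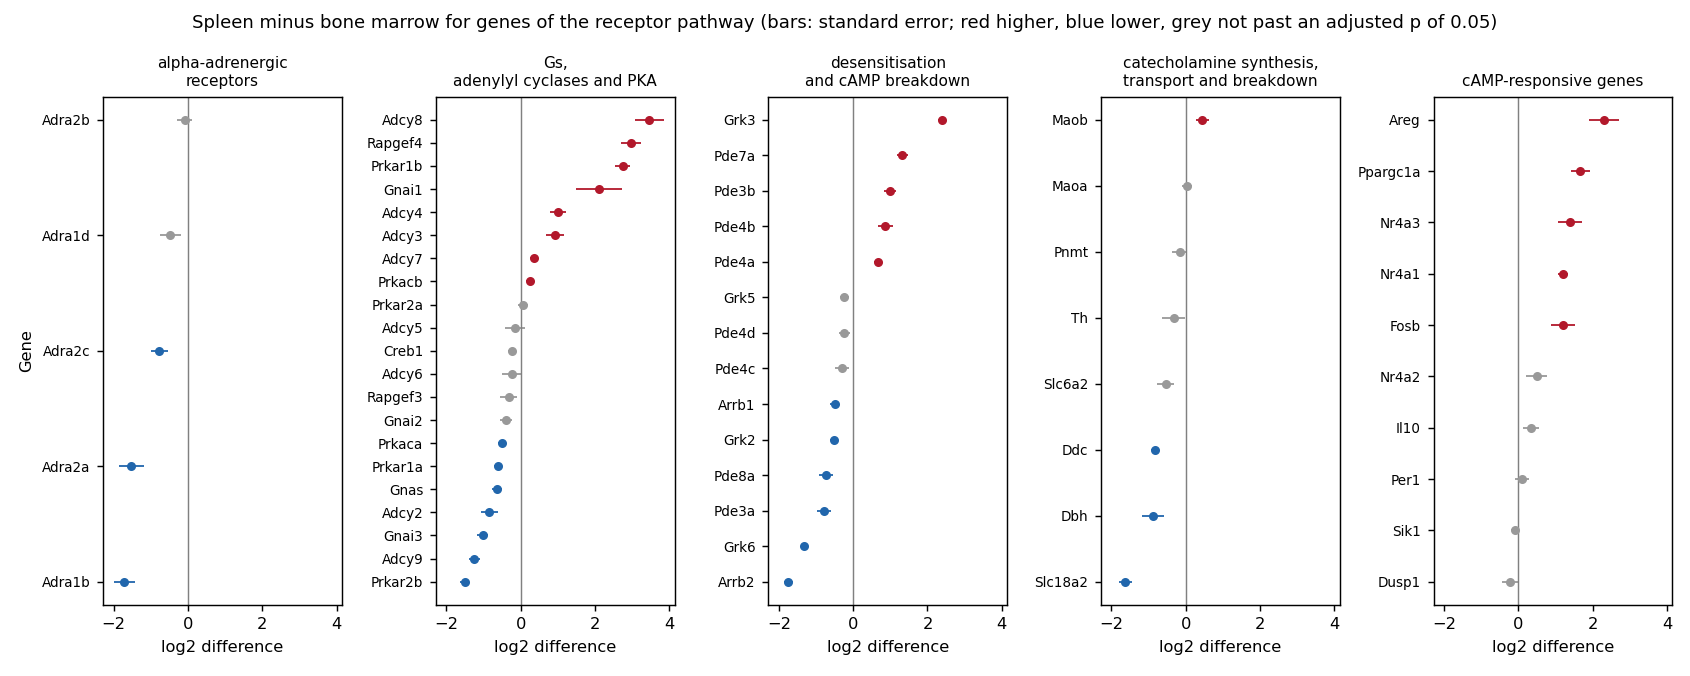
Spleen minus bone marrow, in log2 units, for 58 genes in 5 lists of the receptor pathway, 1 probe per gene over 10 pairs of arrays. Points are limma estimates with standard errors, red is higher and blue lower past an adjusted p of 0.05 and grey did not pass; all 5 coloured cyclic AMP-responsive genes lie on the side of spleen and all 3 coloured alpha-adrenergic receptors on that of bone marrow.

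Between genotypes few of these genes passed, and all 12 calls were lost when 1 of the time points was left out. In HDC-KO spleen 4 of 56 were higher, where 1.94% of all probes were, and 0 lower, with Gnai1, an inhibitory G protein subunit, at 2.87 and Areg at 1.65 the furthest. Gnai1 was well above background on 1 of 4 WT spleen arrays, and Areg on 2 of 3 HDC-KO and 2 of 4 WT spleen arrays. In STAT6-KO spleen 3 of 56 were higher, where 0.692% of all probes were, and 0 lower. Gnai1 at 4.03 and Adcy8 at 2.55 were named, both well above background on 1 of 4 WT arrays. In HDC-KO bone marrow 0 of 55 passed. In STAT6-KO bone marrow 3.59% of all probes were higher and 0.744% lower. There 3 of 55 were higher, led by Adra2b (2.29) and the noradrenaline-making enzyme Dbh (1.78), and 2 were lower, Fosb (-1.41) and the phosphodiesterase Pde4b (-1.28). With MI and in both interactions of genotype with tissue 0 of the tested list genes passed.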

How the data were processed

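CD11b+ cells were profiled on 24 one-colour Agilent arrays, 6 slides of 4, of which 22 were complete. The authors deposited the scanner output of Feature Extraction 11.0.1.1, whose processed signal is a background-corrected intensity. The submitters' processing notes name GCRMA and the study names GeneSpring. Neither was applied here, and the deposited intensity was used as it stood. The log2 of that deposited signal was taken, the array's 75th percentile subtracted, and 3055 spots marked as outliers left out, with 0 saturated. Spots of a probe were averaged, giving 39429 probes. Of these, 27234 got a symbol by matching the platform's transcript identifier to RefSeq genes. A fit kept probes well above background on at least 2 of its arrays.

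Differences were fitted with limma 3.58.1 in R 4.3.3 and adjusted by Benjamini-Hochberg over all probes kept. Tissue was compared within 10 pairs that share genotype and time point, the pair being a block taken from the labels. It matches conditions and not animals. Genotypes were compared with time point as a term, over the 3 genotypes of a tissue, and MI with genotype as a term. Single probes were also tested by exact sign flips over pairs. The fits were tested on simulated data. The p-values measure spread between conditions, since no condition was repeated, and the number of arrays limits the precision.

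The members and gene lists were chosen with earlier results of these data known. Both members are described on every probe. Of each list, up to 3 genes each way between tissues and up to 2 each way in other comparisons are named, the probe with the highest mean standing for a gene, and of each member the 5 genes most like it. Exceptions are stated. Some genes that these rules would take in are not reported here. The alternatives were normexp background correction (offset 50), other scalings, a floor on low signals, other filters, 1 value per gene, the methods' t-test, other blocks and leaving out single pairs, time points or genotypes. Keeping outlier spots and the comparison of MI effects between STAT6-KO and WT were added after the data were seen.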

Additional observations from a re-analysis of the deposited data

Results flagged for a closer look

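Values against a spot not well above background are given here at their bound, and differences with no bound are left out.

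The response of Adrb1 A_52_P322181 to MI in bone marrow ran in opposite directions between genotypes. MI minus control was -2.30 to -0.69 in the 3 WT samples, where the value at 4 weeks is a bound, and -2.06 to -0.44 in the 3 HDC-KO samples. It was 0.20 and 0.78 in the 2 STAT6-KO samples. The gaps between mean effects were -1.92 for WT and -1.54 for HDC-KO, and these differences were not tested. All of them rest on 1 control array per genotype.

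The response of Adrb1 A_51_P203827 in WT was -1.03 to -0.04 in spleen and 0.57 to 1.04 in bone marrow, a gap of -1.45, and the difference was not tested.

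Adrb3 A_55_P1992849, the probe near background, differed in direction in 3 contrasts among the values kept here. MI minus control in bone marrow was -0.66 and -0.29 in STAT6-KO, against bounds of 0.98 and 1.33 in WT and of 0.76 and 1.48 in HDC-KO. The gaps were 1.63 and 1.59. The WT and HDC-KO controls were not well above background, so only a rise could give a bound there. With neither spot well above background, HDC-KO at 2 weeks (-1.31) and WT at 1 week (0.86) were left out. Spleen minus bone marrow was 0.02 to 1.70 in HDC-KO and -1.84 to -0.55 in STAT6-KO, a gap of 2.16. These differences were not tested.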

How the results depend on the processing

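Over 40 results for the 4 probes, 659 values under an alternative were computed. Of these 603 kept direction and side of the threshold, 12 lost a call, 4 gained one and 40 changed direction, and the cause was not tested. All 40 belonged to differences that had not passed. The mean of a gene's probes counted here as an alternative for each of its probes.

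The tissue difference of Adrb1 A_52_P322181 passed under all 22 alternatives, between 2.70 as the mean of both probes and 4.66, and at 3.18 with normexp. Without single pairs it was 4.43 to 4.70. With no replicate block, that is without the pairing, it was 4.53, and for A_51_P203827 and Adrb3 A_55_P2105685 it was 0.87 and -0.68, and no call of the 4 probes changed. Without the block, 87 and 526 probes passed in the HDC-KO and STAT6-KO interactions, against 314 and 103, and 0 in place of 1 catecholamine gene was higher. The call of Adrb3 A_55_P2105685 was lost with the mean of its probes (-0.36), and single pairs left out gave -0.80 to -0.52.

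For HDC-KO in spleen, A_52_P322181 was 1.97 and passed with the 2 genotypes alone, and leaving out single time points gave 1.33 to 1.97. For STAT6-KO that range was 0.85 to 1.86, and for MI in spleen, over genotypes left out, -2.66 to -0.33. The call of A_55_P1992849 in HDC-KO spleen was lost with normexp (0.29), quantile normalization (0.71), median scaling (0.94), a floor (0.33), outlier spots kept (0.36), no filter (1.08), the methods' t-test (1.18) and the mean of probes (0.07), and for 3 of the time points left out (0.85 to 1.18).

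Direction changed as follows. In some results the mean of both Adrb1 probes had the direction of A_52_P322181 and not that of A_51_P203827. That mean was 0.77 and 0.46 for HDC-KO in spleen and bone marrow, -0.18 for MI in bone marrow and 0.15 for the HDC-KO interaction. The mean of both Adrb3 probes was -0.43 for STAT6-KO in spleen, opposite to A_55_P2105685. For the MI effect in STAT6-KO minus that in WT it was -0.14, opposite to both Adrb3 probes. That effect was -0.45 on A_55_P1992849 with outlier spots kept. With normexp, A_51_P203827 was -0.06 and A_52_P322181 -0.0033 for STAT6-KO in bone marrow, A_55_P1992849 was 0.82 for STAT6-KO in spleen, 0.40 for MI in spleen and 0.25 for the STAT6-KO interaction, and A_55_P2105685 was 0.04 for MI in spleen. With quantile normalization and median scaling, A_55_P2105685 was -0.04 and -0.06 for HDC-KO in spleen and -0.01 and -0.06 for its interaction, A_55_P1992849 was 0.06 and 0.06 for STAT6-KO in spleen, and A_51_P203827 was -0.06 and -0.08 for STAT6-KO in bone marrow. A_55_P1992849 was 0.03 for STAT6-KO in spleen with the percentile over well-measured probes, and 0.09 for MI in spleen with a floor.

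Leaving out 1 time point, genotype or pair gave these ranges. A_51_P203827 ran from -0.26 to 0.04 for HDC-KO in spleen, -0.23 to 0.02 for HDC-KO and -0.28 to 0.35 for STAT6-KO in bone marrow, -0.58 to 0.11 for the HDC-KO interaction and -0.11 to 0.28 for the MI effect between genotypes. A_55_P2105685 ran from -0.01 to 0.19 and -0.06 to 0.17 for HDC-KO and STAT6-KO in spleen, -0.45 to 0.09 for MI in spleen, and -0.14 to 0.48 and -0.81 to 0.17 for the interactions. A_55_P1992849 ran from -0.16 to 0.12 for STAT6-KO in spleen and -1.01 to 0.14 for its interaction.

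The probes that passed numbered 14646 to 19445 for tissue, 0 to 2984 against 843 and 3 to 1128 against 629 for HDC-KO and STAT6-KO in spleen, 0 to 468 against 139 and 0 to 1983 against 1422 in bone marrow, 0 to 346 for MI in spleen, 0 for MI in bone marrow, 0 to 898 and 0 to 526 for the interactions and 0 to 3 for the MI effect between genotypes. By the methods' t-test 7507, 1538, 879, 658, 990, 144 and 250 probes passed the methods' own threshold in the first 7 comparisons, and 17849, 0, 3, 0, 0, 0 and 0 after Benjamini-Hochberg. Between tissues, 5 to 8 genes of the G protein list, 2 to 6 cyclic AMP-responsive genes and 0 to 1 catecholamine genes were higher. Of 38 pathway calls 26 held under every alternative, and 2 were lost when 1 pair was left out. Signals near background limit A_55_P1992849 and A_52_P322181 in bone marrow.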
